A study of Rattus norvegicus with 15 samples.

Results

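The nuclear-encoded genes of mitochondrial oxidative phosphorylation were examined in the nucleus accumbens of cocaine-experienced rats. Members were taken by gene symbol: the Ndufa, Ndufb, Ndufc, Ndufs and Ndufv families of complex I, Sdha to Sdhd of complex II, the Uqcr genes of complex III, the Cox4 to Cox8 families of complex IV and the Atp5 genes of complex V. Of 28826 probe sets on the array, 90 carried exactly 1 such symbol, and these gave 80 genes of the 14497 genes with a single symbol. For 10 of the 80 genes that had 2 probe sets, the one with the higher average over all arrays stands for the gene. A filter on low values kept 78 of the 80 members and 11778 genes in all. The testis-type subunit gene Cox8c and the pseudogene symbol Cox6c-ps1 did not pass it. By symbol, the members tested were 33 genes named for complex I subunits, 3 complex I assembly factors (Ndufaf1, Ndufaf3 and Ndufaf4), 4 genes of complex II, 7 of complex III, 14 of complex IV and 15 of complex V. They also included Atp5if1, which encodes the inhibitor of the ATP synthase, and the pseudogene symbol Ndufs6-ps1. Ndufa4 was kept with complex I by its symbol, although its product is now counted as a component of complex IV. Genes encoded by mitochondrial DNA and Cyc1 of complex III lie outside the symbol rule. Across saline, 1 day and 30 days of abstinence, with and without an extinction test, 0 of the 78 tested members passed in any comparison. Of all 11778 genes, 1 passed in 30 days against 1 day and 0 in every other comparison. The spread of the members over the arrays was near that of other genes of like level.

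All animals were male Sprague-Dawley rats, whose age the labels do not give, with an intravenous catheter and 10 days of lever-press self-administration for 6 h per day. The 4 cocaine groups took 0.75 mg/kg per infusion. Group 1W had then undergone 1 day of forced abstinence and group 30W 30 days; groups 1C and 30C had undergone the same 1 day and 30 days and in addition an extinction test, a session in which lever presses deliver no drug. The control group (Sal) self-administered saline, and the labels give it neither an abstinence period nor a test, so a comparison with Sal also holds any difference in time or testing. Each group had 3 arrays. Whether an array held RNA of 1 rat or of a pool is not stated, so the tests measure the spread between these samples, which may be technical. Values are log2 intensities, and a difference of 1 is a doubling.

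Oxidative phosphorylation makes most of the ATP that neurons spend on ion pumping and synaptic transmission. Electrons enter the respiratory chain from NADH at complex I and from succinate at complex II, pass through complex III and cytochrome c to oxygen at complex IV, and the proton gradient built on the way drives the ATP synthase, complex V. Most subunits are encoded in the nucleus by genes spread over many chromosomes, and their transcripts are known to be coordinated by the nuclear respiratory factors NRF1 and GABPA (also called NRF2), by estrogen-related receptors and by YY1, with the coactivator encoded by Ppargc1a.

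Promoter sequence from RefSeq (assembly GRCr8), covering 250 bases before to 50 bases after the annotated start, was matched for 70 of the 80 members. Every motif was searched on both strands. The NRF1 sequence GCGCATGCG was found in 7 of these 70 promoters (10%), against 1.52% of all 33469 rat promoters of this length and 2.43% of the 12514 promoters of genes named on the array. The GABPA core CCGGAAG was found in 21 members (30%), against 8.75% of all promoters and 12.9% of those of array genes. The YY1 sequence AAGATGGCG was found in 8 members (11.4%, against 1.73% and 2.57%) and the estrogen-related receptor element AAGGTCA in 10 (14.3%, against 4.61% and 3.38%). At least 1 of these 4 motifs was present in 35 of the 70 promoters (50%), against 15.5% of all and 19.5% of array genes. The cyclic AMP response element TGACGTCA was found in 4 members (5.71%, against 1.83% and 2.45%), and the TATA box hexamer TATAAA in 5 (7.14%, against 14.2% and 11.6%). A promoter was counted once for a motif however many matches it held, and matches to different motifs could overlap. The first 3 lines below show 3 of the 7 members with the NRF1 sequence (in capitals), Ndufaf4, Ndufa11 and Atp5mc2. The others with this match were Atp5me, Atp5mg, Atp5po and Uqcrc1, and all of these but Atp5me also appear in the comparisons below. The last line shows the muscle-type subunit gene Cox6a2, the only member with a MEF2 consensus match (in capitals), which 3.29% of all promoters and 2.49% of those of array genes held. A match describes these letters and does not show binding.
Ndufaf4, chr5:43401622-43401660, plus strand: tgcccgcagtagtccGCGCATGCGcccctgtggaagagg
Ndufa11, chr9:1637502-1637540, plus strand: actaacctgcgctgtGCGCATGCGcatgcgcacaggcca
Atp5mc2, chr7:135678251-135678289, minus strand: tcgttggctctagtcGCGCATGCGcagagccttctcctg
Cox6a2, chr1:192219742-192219781, minus strand: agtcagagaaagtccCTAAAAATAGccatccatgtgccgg

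The capitals began 158 bases before the start in Ndufaf4, 97 in Ndufa11, 56 in Atp5mc2 and 50 in Cox6a2. For NRF1 they mark only the first match. Further NRF1 matches that overlap the capitals began at position -157 from the start in Ndufaf4, at -96, -91 and -90 in Ndufa11 and at -55 in Atp5mc2. The 3 members shown with the NRF1 sequence did not have the same order of groups: the mean of Ndufaf4 was lowest in Sal, that of Ndufa11 in 30W, and that of Atp5mc2 in 30W with 1 low array in 30C.

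The arrays resembled each other closely, with Pearson correlations over all probe sets of 0.9929 to 0.9967. The labelled tissue carried its defining markers on every array: Ppp1r1b (DARPP-32) lay between 11.80 and 12.39 and Drd1 between 9.54 and 10.31. Markers of cortical projection neurons differed between arrays of the same group, and Slc17a7, which loads glutamate into their synaptic vesicles, lay between 7.16 and 12.16. The mean deviation of 10 such markers was lowest in Sal replicate 1 (-1.20) and highest in 30C replicate 1 (0.96), and that of 16 medium spiny neuron markers was lowest, at -0.45, in 30C replicate 1. In bulk tissue, fewer cells of a type and less RNA per cell cannot be told apart. The 25th percentile of the arrays lay between 5.48 and 5.51 in the 6 arrays at 1 day and between 5.53 and 5.59 in the 6 arrays at 30 days. In Sal it was 5.52, 5.51 and 5.57, with group means of 5.53 in Sal and 5.49 in 1W. The offset between 1 day and 30 days accompanies every comparison of these below. Comparisons with Sal also hold a difference in this value.

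Over all 15 arrays the median standard deviation of a member was 0.06, against 0.09 over all genes tested. Below a level of 9 the members had the same median spread as other genes to 2 decimals: it was 0.11 for 3 members and 0.11 for 3026 genes from 5 to 7, and 0.09 for 11 members and 0.09 for 4940 genes from 7 to 9. Among genes with a mean level from 9 to 11, the median was 0.07 for 30 members and 0.07 for all 3128 genes, and from 11 to 13 it was 0.05 for 34 members and 0.06 for 667 genes. The steadiest member was Atp5f1b, which encodes the catalytic beta subunit of the ATP synthase. It measured 12.26, 12.28 and 12.22 in Sal, 12.29, 12.26 and 12.26 in 1W, 12.25, 12.25 and 12.29 in 1C, 12.26, 12.28 and 12.29 in 30W, and 12.24, 12.26 and 12.25 in 30C. The groups of Atp5f1b overlapped throughout, and its whole range over 15 arrays was 0.07. Atp5mc3 (a proton-carrying c-ring subunit), Atp5pb (a subunit of the stator stalk) and Atp5f1a (the alpha subunit) followed, with standard deviations of 0.03, 0.04 and 0.04. At the other end stood Ndufs6-ps1 with 0.16, Ndufaf1 (an assembly factor of complex I) and Cox8b (a muscle-type subunit) with 0.12 each, and Uqcrfs1, the Rieske iron-sulfur protein of complex III, with 0.11. Uqcrfs1 measured 8.10, 8.12 and 7.86 in Sal, 8.27, 8.10 and 8.20 in 1W, 8.12, 8.06 and 8.21 in 1C, 8.10, 8.16 and 8.14 in 30W, and 8.22, 7.88 and 8.09 in 30C. Its low arrays were Sal replicate 3 and 30C replicate 2, and each of those groups also held arrays above 8.

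**Figure D1:**
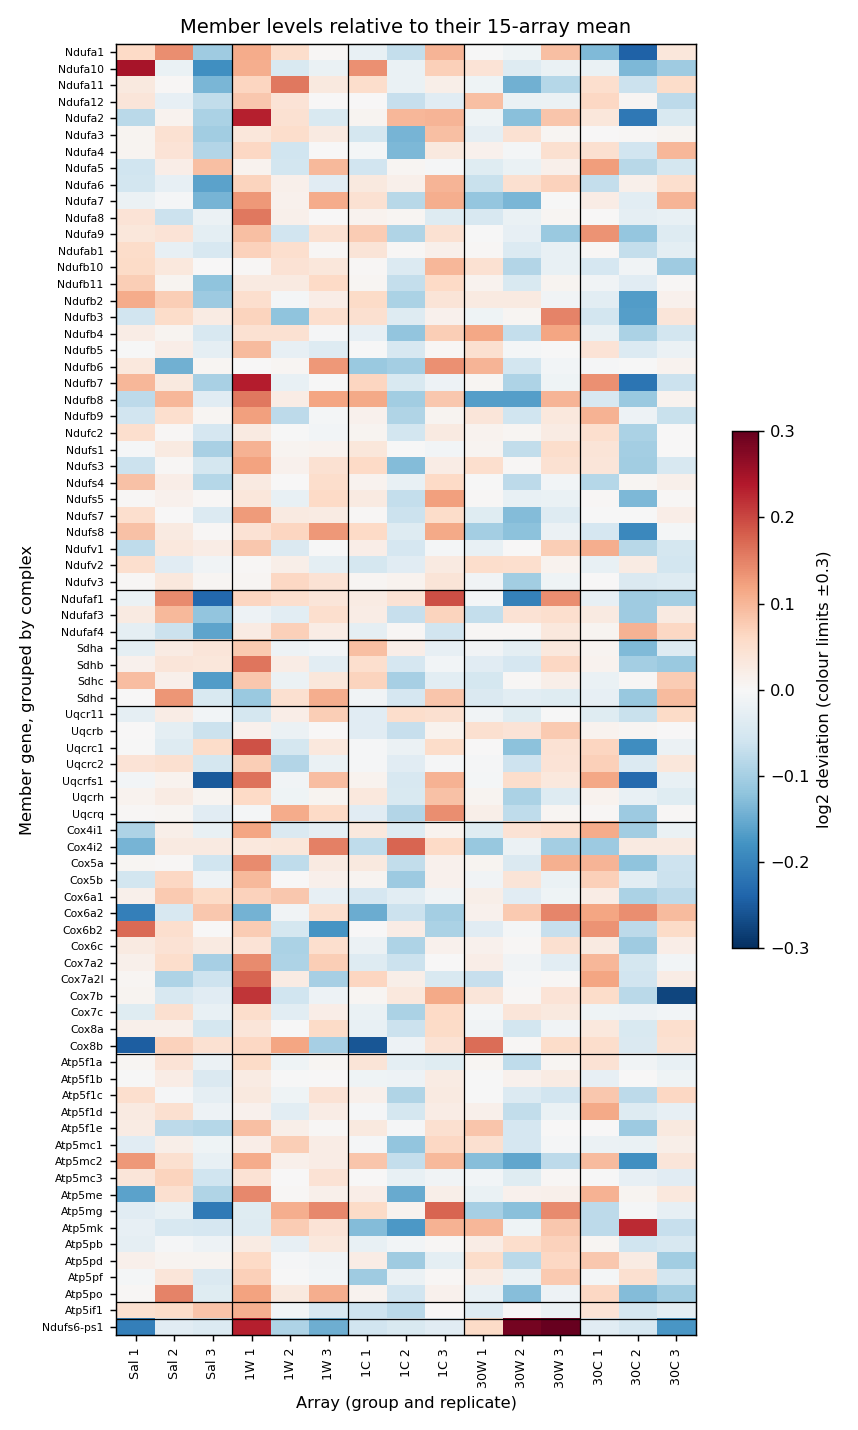
Deviation of each of the 78 tested members (rows, by complex) from its own mean over 15 arrays (columns, by group), on the log2 scale. The columns of 1W replicate 1 (mean deviation 0.07) and 30C replicate 2 (mean deviation -0.06) stand out over most rows, while arrays of the same group differ from each other.

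The members moved together from array to array, and they did so within the groups. After the group means were taken out, the median Pearson correlation over the 3003 pairs of members was 0.33 across 15 arrays, and 80.0% of pairs were positive. Over all pairs of tested genes the median was 0.03. The gap was also present among genes of like level: in the band from 9 to 13 the median was 0.36 for 64 members and 0.07 for 3731 other genes. The median was 0.34 for pairs from different complexes, 0.39 for pairs within complex I and 0.34 within complex V. Pairs within complex III had a median of 0.45, within complex IV of 0.30 and within complex II, with 6 pairs, of 0.16. Pairs among the cytosolic ribosomal protein genes themselves had a median of 0.25 (71.7% positive), so shared movement was not particular to the members. Pairs of a member with a cytosolic ribosomal protein gene had a median of 0.18, with a glycolytic gene of 0.20 and with a gene of the tricarboxylic acid cycle of 0.20. With cortical neuron markers the median was -0.01. These are descriptions across genes that share the same 15 arrays, and genes are not independent replicates.

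The shared movement can be read from the mean deviation of all members on each array. It was 0.00, 0.02 and -0.05 in Sal, 0.07, 0.00 and 0.02 in 1W, 0.00, -0.05 and 0.04 in 1C, 0.00, -0.03 and 0.02 in 30W, and 0.02, -0.06 and -0.01 in 30C. Every group overlapped every other. Array 1W replicate 1 was highest and 30C replicate 2 lowest, and the same arrays were highest (0.07) and lowest (-0.05) for 67 cytosolic ribosomal protein genes, whose part in the members' values was not tested. Group means were 0.03 ± 0.03 (SD, n = 3) in 1W and -0.02 ± 0.04 (SD, n = 3) in 30C, with Sal, 1C and 30W between them. The within-group standard deviation was 0.04.

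The complexes followed the same arrays in part. Complex I subunits were highest in 1W replicate 1 (0.08) and lowest in 30C replicate 2 (-0.08). Complex IV had the same extremes, at 0.08 and -0.05. Complex II was lowest in 30C replicate 2 (-0.09) and highest, at 0.05, in Sal replicate 2. Complex III was also lowest in 30C replicate 2 (-0.09) and highest in 1C replicate 3 (0.06), while complex V was lowest in 1C replicate 2 (-0.06) and highest in 1W replicate 1 (0.05). In the plot of complex means by array the groups overlapped for complexes I, III, IV and V. For complex II the 3 arrays of 1W (0.05, 0.01 and 0.03) lay above the 3 of 30C (-0.01, -0.09 and 0.01), by less than the spread within either group.

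**Figure D2:**
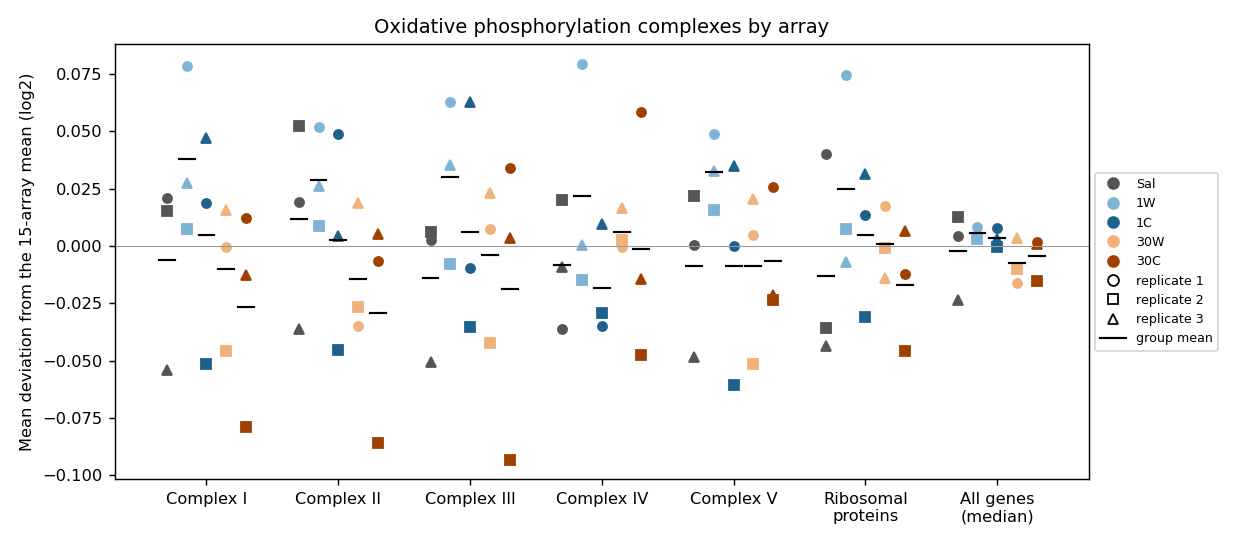
Mean log2 deviation of the members of each complex on each of the 15 arrays, by group, beside cytosolic ribosomal proteins and the median of all genes; points are arrays and bars are group means. Arrays of 1 group differ from each other in every complex, with 1W replicate 1 high and 30C replicate 2 low in complexes I and IV.

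In none of the 12 comparisons did a member pass an adjusted p of 0.05 in limma, in either direction. Among all 11778 genes 0 passed in 11 comparisons and 1 gene (0.00849%) passed in 30 days against 1 day, so a count of 0 members sits on a background near 0. How large a difference the arrays could have missed is given by the 95% intervals of the single differences, which are not adjusted for the number of genes. On the probe set that stands for each gene, the interval lay inside a 1.5-fold difference for 78 of 78 members in every comparison. Of all genes, 97.2% to 99.0% did so in 11 comparisons and 93.6% in the interaction. The lower Cox5a probe set differed by 0.57 (SE 0.17) in 30W against Sal, and its interval passed that limit. Inside 1.2-fold lay 66 members in 30W against 1W, 69 in 1W against Sal and in 30C against 1C, 71 in 30W against Sal, 74 in 1C against Sal, 30C against Sal and 30C against 30W, and 76 in 1C against 1W. These are 84.6% to 97.4% of members, against 65.8% (30W against 1W) to 73.8% (1C against Sal) of all genes. The median level was 10.68 for members and 8.18 for all genes. In comparisons of 2 groups an interval reached a median of 0.12 to either side for members and 0.15 for all genes.

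**Figure D3:**
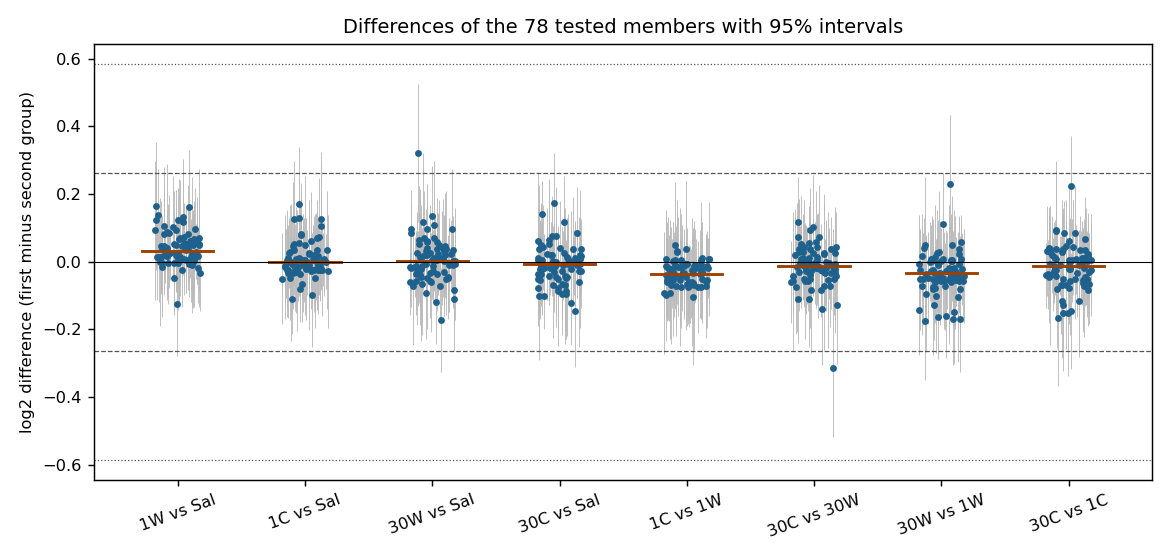
Log2 difference of each of the 78 tested members, on its probe set with the higher mean, in the 8 comparisons of 2 groups. Points are members, grey lines their 95% intervals, and the bar the median. Every interval lies inside the dotted lines at 1.5-fold, most lie inside the dashed lines at 1.2-fold, and the medians lie between -0.04 and 0.03.

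Abstinence length was compared first without a test. In 30W against 1W, 56 of 78 members had a lower mean at 30 days, with a median log2 difference of -0.03. All genes had a median of -0.02 in that comparison. At an unadjusted p under 0.05, 7 members (8.97%) were lower and 1 (1.28%) higher, against a background of 5.9% and 4.19% of all genes. Groups did not overlap for 11 members (14.1%) that were lower and 1 that was higher, against 10.5% and 5.53%. These shares lay near the background. Read by level, the members' median was -0.05 against -0.04 for all genes from 9 to 11 and -0.03 against -0.02 from 11 to 13, close to other genes of their level, while the 3026 genes from 5 to 7 had a median of 0.05, in the other direction. The sign of the members' median depended on the scale: it was 0.01 after each array was centred on its median and 0.03 with the mean of the low-level genes as a covariate. Without 1W replicate 1 it was -0.01. Lower means in 30W were shared by 15 of 15 oligodendrocyte markers (median -0.15), 14 of 14 microglia and macrophage markers (-0.16) and 12 of 12 endothelial and mural markers (-0.09). On single arrays the mean deviation of the microglia markers lay between 0.03 and 0.18 in 1W and between -0.10 and -0.03 in 30W. The part of these cells in the members' values was not tested.

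By complex, the median in 30W against 1W was -0.03 for complex I (25 of 33 lower), -0.05 for complex II (4 of 4), -0.06 for complex III (5 of 7), -0.01 for complex IV (8 of 14) and -0.04 for complex V (11 of 15). In 30C against 1C, after the extinction test, the medians were -0.02, -0.04, -0.04, 0.01 and 0.01, and over all members -0.01, beside -0.01 for all genes. Medium spiny neuron markers were lower in mean there for 16 of 16 genes (median -0.13) and endothelial and mural markers for 12 of 12 (-0.11), and their part was not tested. The mean deviation of the spiny neuron markers was -0.45, 0.07 and 0.13 in 30C and -0.002, -0.01 and 0.17 in 1C. Only 30C replicate 1 lay below all 1C arrays in these markers. An unadjusted p under 0.05 was reached there by 1 member that was higher and 1 that was lower, against a background of 2.41% and 3.07%, and groups did not overlap for 2 higher and 4 lower members, against 3.82% and 5.87%. Averaged over both pairs, 57 of 78 members had a lower mean at 30 days, with a median of -0.02 for members and -0.02 for all genes. The count at an unadjusted p under 0.05 was 5 members lower (6.41%) and 1 higher (1.28%), against 7.45% and 5.54%. That median turned to 0.01 after a further quantile normalization, to 0.02 after median centring and to 0.03 with the low-level covariate.

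The extinction test was compared at each abstinence length. In 1C against 1W, 66 of 78 members had a lower mean after the test, with a median of -0.04 against 0.00 for all genes. At an unadjusted p under 0.05 there were 0 members on either side, against 1.86% of all genes higher and 2.17% lower. Groups did not overlap for 0 members higher and 4 lower, against 3.57% and 4.3%. The direction was shared by complex I (29 of 33), complex IV (12 of 14) and complex V (14 of 15). In complexes II and III it was shared by all members but Sdha, Uqcr11 and Uqcrh. The members' median was -0.04 from level 9 to 11 against -0.01 for all genes there. Because members move together, 66 genes on one side are not 66 observations. The median was -0.02 without 1W replicate 1 and -0.01 without 1C replicate 2, which were the highest and the lowest of the 6 arrays in the mean over members, and with the low-level covariate it was -0.01. Median centring of the arrays gave -0.04 and quantile normalization -0.02. Markers of other cells differed in the same comparison. Oligodendrocyte markers were lower in mean for 15 of 15 genes, 12 of them at an unadjusted p under 0.05, with a median of -0.18, and interneuron markers for 7 of 7 with a median of -0.23. The mean deviation of the oligodendrocyte markers lay between -0.02 and 0.26 on the 1W arrays and between -0.08 and -0.04 on the 1C arrays. Array 1W replicate 1 was the highest of all 15 for oligodendrocyte (0.26), microglia (0.18) and interneuron (0.39) markers as well as for the members. The part of these markers in the members' values was not tested. In 30C against 30W the median was -0.01, with 49 of 78 members lower. There 2 members were lower and 0 higher at an unadjusted p under 0.05, against 1.82% and 2.11%. Groups did not overlap for 4 lower and 1 higher, against 3.87% and 4.51%, and the median turned to 0.01 without 30C replicate 2. Averaged over both abstinence lengths, 61 of 78 members had a lower mean after the test, with a median of -0.02 against 0.00 for all genes. An unadjusted p under 0.05 was reached by 0 members higher and 1 lower, against 2.5% and 2.34%. Oligodendrocyte markers had a median of -0.14 there, with 15 of 15 lower, and their part was not tested. The interaction of test and abstinence length had a median of 0.03 for members and 0.01 for all genes. The members' value rested on single arrays and settings: it was 0.0025 without 30C replicate 1, 0.0040 without 1C replicate 2, 0.0056 without 30W replicate 2, 0.0005 with array weights and -0.0160 with the low-level covariate. In the interaction no member reached an unadjusted p under 0.05, against 1.6% and 1.43% of all genes.

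Against saline, the group medians of the members were 0.03 for 1W (64 of 78 higher), 0.00 for 1C, 0.00 for 30W and -0.01 for 30C. The median of all genes was 0.01 in 1W against Sal, where 57.7% of genes were higher, and 0.01, -0.01 and -0.01 in the other 3 groups. The members' 1W value was 0.01 without 1W replicate 1, 0.01 with array weights and 0.01 with the low-level covariate. Leaving out 1 array moved the others across 0, from -0.02 to 0.02 in 1C, from -0.01 to 0.01 in 30W and from -0.04 to 0.01 in 30C. In 1W against Sal, 15 of 15 oligodendrocyte markers (median 0.10), 12 of 12 endothelial and mural markers (0.13), 13 of 14 microglia and macrophage markers (0.14) and 15 of 16 medium spiny neuron markers (0.07) also had higher means. The mean deviation of the spiny neuron markers overlapped, at -0.24, 0.08 and 0.28 in 1W and -0.03, 0.09 and -0.16 in Sal. Of 5 blood markers 4 were higher, with a median of 0.42. The part of these markers in the members' values was not tested. An unadjusted p under 0.05 was reached in 1W by 2 members that were higher and 0 that were lower, against a background of 2.78% and 2.09%. In 1C it was reached by 2 and 1 (2.1% and 1.33%), in 30W by 3 and 1 (4.25% and 3.35%), and in 30C by 2 and 1 (2.94% and 2.12%). Members that did not overlap with Sal numbered 5 above and 0 below in 1W, against 4.84% and 3.25%, and 2 and 3 in 1C, against 3.97% and 3.21%. They numbered 5 and 5 in 30W, against 6.47% and 7.19%, and 2 and 6 in 30C, against 4.3% and 4.11%. The mean of the 4 cocaine groups differed from Sal by a median of 0.01 (-0.01 to 0.02 when 1 Sal array was left out). At an unadjusted p under 0.05, 2 members were higher and 0 lower in that comparison, against 2.65% and 1.68% of all genes. The 4 comparisons with saline share its 3 arrays, so a low or high Sal value recurs in each.

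Among complex I genes, Ndufs8, which encodes a subunit that carries iron-sulfur clusters, had its lowest arrays at 30 days. It measured 9.98, 9.92 and 9.90 in Sal, 9.94, 9.96 and 10.02 in 1W, 9.95, 9.86 and 10.01 in 1C, 9.79, 9.77 and 9.88 in 30W, and 9.84, 9.70 and 9.89 in 30C. All 3 arrays of 30W lay below all 3 of 1W, while 30C and 1C overlapped by 1 array each. The arrays of 30W and of 30C also lay below all 3 of Sal, though the nearest of 30C and Sal were 9.89 and 9.90. The difference was -0.16 (SE 0.06, limma adjusted p = 0.403) in 30W against 1W and -0.13 (SE 0.06, adjusted p = 0.899) in 30C against 1C. Averaged over both it was -0.14 (SE 0.04, adjusted p = 0.243), and -0.05 with the low-level covariate.

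Ndufa7 and Ndufa11, both supernumerary subunits of complex I, had non-overlapping groups in 30W against 1W and not in 30C against 1C. Ndufa7 measured 9.10, 9.12 and 8.98 in Sal, 9.25, 9.13 and 9.23 in 1W, 9.17, 9.04 and 9.23 in 1C, 9.004, 8.98 and 9.12 in 30W, and 9.14, 9.09 and 9.22 in 30C. Its difference was -0.17 (SE 0.06, limma adjusted p = 0.407) without the test, went to 0.00 with the low-level covariate, and was 0.01 (adjusted p = 0.996) after the test. Ndufa11 measured 10.12, 10.21 and 10.08 in 1W and 10.04, 9.91 and 9.97 in 30W, a difference of -0.16 (SE 0.06, adjusted p = 0.392) that was -0.08 with the low-level covariate, and 0.00 (adjusted p = 0.996) after the test. The difference between these effects was tested as the interaction, which no member passed. The remaining members lower in 30W at an unadjusted p under 0.05 were Ndufb8, Ndufs7, Atp5mc2 and Atp5po, named here after their values were seen.

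The assembly factor Ndufaf4, needed to build complex I and not part of the finished enzyme, was the only member whose saline arrays lay below all arrays of more than 1 cocaine group. It measured 8.88, 8.85 and 8.75 in Sal, 8.93, 8.98 and 8.93 in 1W, 8.88, 8.91 and 8.85 in 1C, 8.91, 8.91 and 8.94 in 30W, and 8.92, 9.01 and 8.97 in 30C. The 3 arrays of 1W, of 30W and of 30C all lay above the 3 saline arrays, and those of 1C overlapped them. Differences from Sal were 0.12 in 1W, 0.10 in 30W and 0.14 in 30C (SE 0.04 each, limma adjusted p = 0.979, 0.649 and 0.765), and 0.06 in 1C (adjusted p = 1). These share the saline arrays, of which replicate 3 was the lowest of all 15, and without it the difference of Ndufaf4 was 0.06 in 30W. In the other direction, the saline arrays of Atp5if1 lay above all arrays of 1C, 30W and 30C. Those of Ndufs8 and Ndufv3 lay above all arrays of 30W and 30C, and those of Cox6c above all of 1C and 30C. Ndufa6, an accessory subunit, was higher in 1C than in Sal by 0.13 (SE 0.05, adjusted p = 1), with values of 9.36, 9.34 and 9.43 against 9.27, 9.30 and 9.17. Ndufs1 and Ndufv1, core subunits, and Ndufs4, an accessory subunit needed for a stable enzyme, had group means that spanned 9.95 to 10.02, 10.40 to 10.43 and 12.12 to 12.17.

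Complex II carries electrons from succinate and is also an enzyme of the tricarboxylic acid cycle. Its flavoprotein gene Sdha measured 10.43, 10.48 and 10.49 in Sal, 10.53, 10.44 and 10.45 in 1W, 10.55, 10.48 and 10.43 in 1C, 10.44, 10.43 and 10.49 in 30W, and 10.46, 10.32 and 10.42 in 30C. The lowest array was 30C replicate 2, the lowest for the members as a whole, and no pair of groups separated. Group means spanned 9.69 to 9.80 for Sdhb, 11.14 to 11.20 for Sdhc and 9.70 to 9.76 for Sdhd.

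In complex III, Uqcrb, a small subunit beside the ubiquinone-binding site, measured 11.14, 11.11 and 11.08 in Sal and 11.19, 11.18 and 11.22 in 30W, a difference of 0.09 (SE 0.04, limma adjusted p = 0.615). The groups did not overlap on that probe set. On the other Uqcrb probe set the same difference was -0.09, so its direction was not settled. The core protein gene Uqcrc1 ranged from 10.11 in 30C replicate 2 to 10.49 in 1W replicate 1, and its group means from 10.25 to 10.35.

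Complex IV contains subunits with paired tissue forms, and Cox6a2 is the form of heart and skeletal muscle, found in brain mainly in parvalbumin interneurons. It measured 6.53, 6.68 and 6.81 in Sal, 6.59, 6.72 and 6.78 in 1W, 6.58, 6.66 and 6.63 in 1C, 6.74, 6.81 and 6.88 in 30W, and 6.85, 6.87 and 6.82 in 30C. All 30C arrays lay above all 1C and all Sal arrays, whereas 30W overlapped 1W and Sal. The difference was 0.22 (SE 0.07, limma adjusted p = 0.748) in 30C against 1C, 0.17 (SE 0.07, adjusted p = 0.912) in 30C against Sal and 0.17 (SE 0.05, adjusted p = 0.254) averaged over 30 days against 1 day. The difference of Cox6a2 in 30C against Sal was 0.10 without Sal replicate 1 and 0.24 without Sal replicate 3. Cox6a2 lay in the band from 5 to 7, where all genes had a median of 0.04 in the averaged comparison. Pvalb, the defining gene of those interneurons, measured 8.60, 7.84 and 7.64 in 30C and 8.04, 7.68 and 7.63 in 1C, a difference of 0.24 (SE 0.24, adjusted p = 0.946), and differed by 0.01 (SE 0.17, adjusted p = 0.985) over 30 days against 1 day. Its part in the Cox6a2 values was not tested.

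The ubiquitous partner Cox6a1 did not mirror that order in every group. Its mean was lowest in 30C, where that of Cox6a2 was highest, and next lowest in 1C, where that of Cox6a2 was lowest. Cox6a1 measured 12.58, 12.64 and 12.62 in Sal, 12.63, 12.64 and 12.54 in 1W, 12.51, 12.53 and 12.55 in 1C, 12.58, 12.53 and 12.55 in 30W, and 12.58, 12.47 and 12.48 in 30C. Its difference in 30C against Sal was -0.10 (SE 0.04, limma adjusted p = 0.949) with overlap at 1 array of each group. All 1C arrays of Cox6a1 lay below all of its Sal arrays. For the other pair of forms, group means of Cox4i1, the ubiquitous form of subunit 4, spanned 11.27 to 11.32, and those of Cox4i2, its oxygen-sensitive form, 6.23 to 6.38. Cox7a2l, which joins complexes III and IV into supercomplexes, spanned 10.88 to 10.96, and Cox8a 12.89 to 12.95.

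In complex V, Atp5mc2 encodes 1 of the proteins from which the c ring can be built. It measured 11.70, 11.62 and 11.55 in Sal, 11.68, 11.59 and 11.60 in 1W, 11.66, 11.50 and 11.67 in 1C, 11.45, 11.42 and 11.49 in 30W, and 11.67, 11.39 and 11.61 in 30C. All 30W arrays lay below all Sal, 1W and 1C arrays, and 30C replicate 2 was lower still. The difference in 30W against Sal was -0.17 (SE 0.07, limma adjusted p = 0.582), and on the second Atp5mc2 probe set it was 0.00. Group means of Atp5mc1 spanned 11.04 to 11.09 and those of Atp5mc3 11.76 to 11.81, although all 3 genes encode the same mature c-ring protein.

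Other genes of the ATP synthase showed differences of a similar or smaller size. Atp5mg, a membrane subunit, measured 9.23, 9.19 and 9.35 in 1C and 9.15, 9.16 and 8.97 in Sal, a difference of 0.17 (SE 0.08, limma adjusted p = 1) that was 0.11 without Sal replicate 3. Atp5pb measured 10.21, 10.15 and 10.16 in 30C and 10.23, 10.26 and 10.27 in 30W, a difference of -0.08 (SE 0.04, adjusted p = 0.999). The inhibitor gene Atp5if1, whose product stops the synthase from running in reverse, measured 11.31, 11.30 and 11.38 in 1C and 11.42, 11.43 and 11.46 in Sal, a difference of -0.11 (SE 0.05, adjusted p = 1). In each of these the groups did not overlap, though the nearest arrays of the groups were close.

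The pseudogene symbol Ndufs6-ps1 had the largest single difference among members and the smallest unadjusted p in 30W against Sal. It measured 9.51, 9.68 and 9.67 in Sal, 9.95, 9.62 and 9.57 in 1W, 9.66, 9.67 and 9.68 in 1C, 9.77, 10.00 and 10.05 in 30W, and 9.68, 9.66 and 9.54 in 30C. All 30W arrays lay above all Sal, 1C and 30C arrays, and 1W replicate 1 reached into their range. The difference was 0.32 (SE 0.10, limma adjusted p = 0.447) in 30W against Sal and -0.31 (SE 0.10, adjusted p = 0.999) in 30C against 30W. On the other probe set with this symbol the difference in 30W against Sal was 0.09. A pseudogene can share probes with its parent gene Ndufs6, which had no probe set of its own among the members, so which transcript was measured is uncertain.

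**Figure D4:**
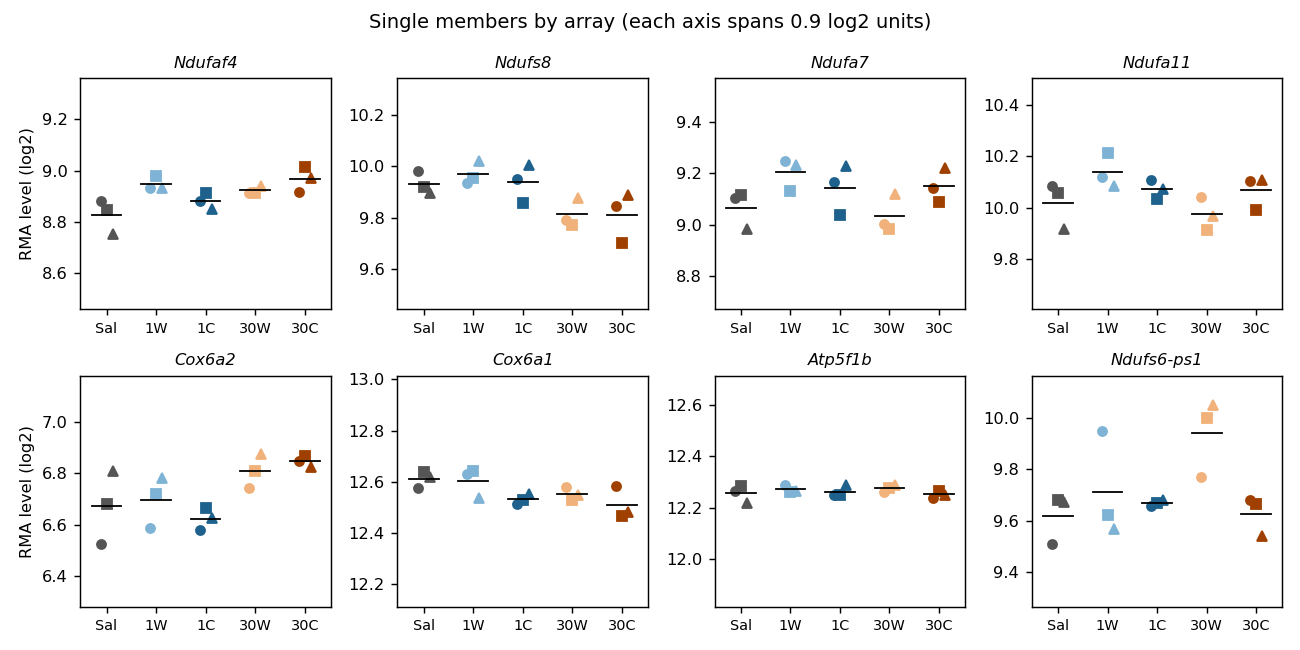
Log2 level of 8 members on each array, by group; points are arrays, bars are group means, and each axis spans the same 0.9 log2 units. Atp5f1b stays within 12.22 to 12.29, Ndufs8 lies lower in 30W (9.77 to 9.88) than in 1W (9.94 to 10.02), and Cox6a2 lies higher in 30C (6.82 to 6.87) than in 1C (6.58 to 6.66).

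Where a gene had 2 probe sets they did not always give the same picture. The lower probe set of Cox5a, a nuclear-encoded subunit of complex IV, measured 9.23, 8.97 and 9.20 in Sal, 9.29, 9.18 and 9.16 in 1W, 9.30, 9.01 and 9.39 in 1C, 9.79, 9.52 and 9.80 in 30W, and 8.73, 9.53 and 9.41 in 30C. All 30W arrays lay above all arrays of Sal, 1W and 1C, and 30C spread from the lowest value of all to inside the 30W range. The difference in 30W against Sal was 0.57 (SE 0.17, limma adjusted p = 0.447) on that probe set and 0.04 on the one with the higher mean. For 30C against 30W they gave -0.48 (SE 0.17, adjusted p = 0.999) and -0.05. Uqcrb differed likewise: over 30 days against 1 day its lower probe set gave -0.17 (SE 0.05, adjusted p = 0.24) and its higher one 0.05. For Cox7a2 the lower and the higher probe set gave 0.00 and -0.05 in 30W against 1W, and 0.04 and 0.00 in 30W against Sal.

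**Figure D5:**
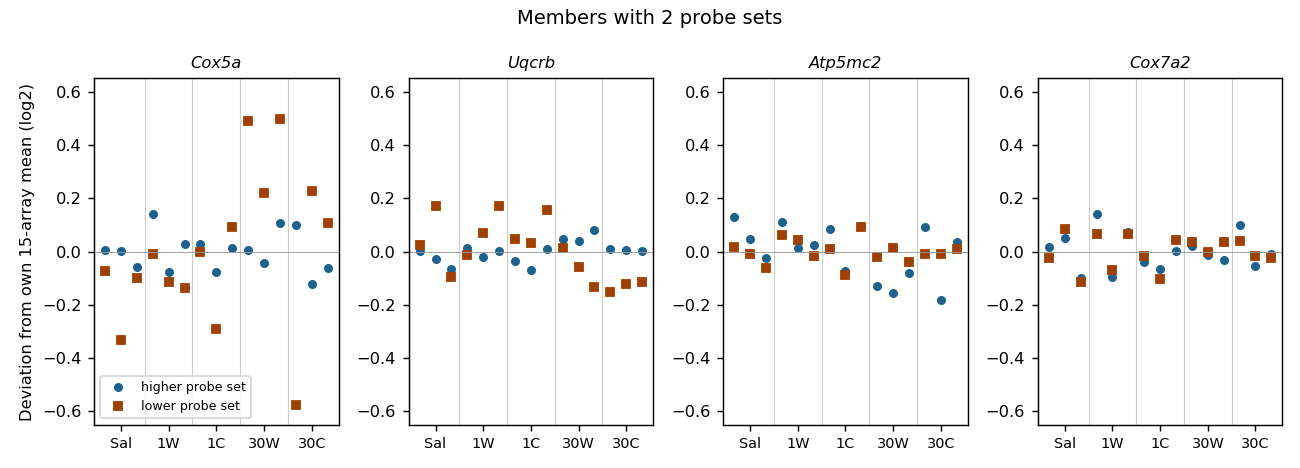
Log2 deviation of each array from the probe set's own mean over 15 arrays, for the higher (circles) and the lower (squares) probe set of Cox5a, Uqcrb, Atp5mc2 and Cox7a2, by group. The lower Cox5a probe set is high in 30W (levels of 9.52 to 9.80) and spread in 30C (8.73 to 9.53), whereas the higher one keeps to levels between 10.99 and 11.25 on all 15 arrays.

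Genes around the respiratory chain were examined in the same way. Lists of 28 further assembly factors, 17 genes of mitochondrial biogenesis, 19 of pyruvate dehydrogenase and the tricarboxylic acid cycle, 13 mitochondrial carriers and porins, 17 glycolytic enzymes, 8 mitochondrial antioxidant enzymes and cytochrome c (Cycs) held 103 tested genes. Of these 103, 0 passed an adjusted p of 0.05 in either direction in any of the 12 limma comparisons. Of all 11778 genes, 1 passed in 30 days against 1 day and 0 in the others, so this count also sits on a background near 0. In 30W against 1W an unadjusted p under 0.05 was reached by 2 that were higher and 2 that were lower (1.94% each, against 4.19% and 5.9% of all genes). Means were lower at 30 days for 25 of 28 assembly factors, 15 of 17 glycolytic enzymes and 8 of 8 antioxidant enzymes, so this direction was shared with genes outside the complexes. The coactivator gene Ppargc1a differed by -0.11 (SE 0.06, adjusted p = 0.57) in 30W against 1W, and Nrf1 by -0.09 (SE 0.05, adjusted p = 0.564). Cycs, the electron carrier between complexes III and IV, differed by 0.04 (SE 0.06, adjusted p = 0.88). Tfam, which packages and transcribes mitochondrial DNA, differed by -0.14 (SE 0.06, adjusted p = 0.631) in 30W against Sal. Pdk4, a kinase that inhibits pyruvate dehydrogenase, differed by 0.64 (SE 0.20, adjusted p = 0.765) in 30C against Sal.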

How the data were processed

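The deposited table holds log2 expression values of 15 Affymetrix arrays made by the authors with RMA, per the submitters' processing notes; neither a version nor the software or any filter is given there. RMA corrects background, quantile-normalizes arrays and summarises each probe set, so a shift of all genes cannot be seen. The labelling kit in the protocol is one for 3' arrays, although the probe set identifiers belong to a whole-transcript design. Depth has no counterpart on arrays; 3 arrays per group limit the precision.

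Platform annotation paired 15209 probe sets with 1 symbol and 306 with several, and 13311 were unnamed; 15178 matched RefSeq (GRCr8) by Entrez identifier. A further probe set with several symbols, among them Ndufa10, was not used. Genes were kept where the probe set lay above the array's 30th percentile on at least 3 arrays. One model with 5 groups was fitted over 15 arrays and 11778 genes with limma 3.58.1 in R 4.3.3 (residual degrees of freedom 10, prior 3.44), two-sided, with Benjamini-Hochberg adjustment within each comparison and a threshold of 0.05. With 3 arrays against 3, an exact test cannot go below p = 0.1. The code was tested on simulated data. Members, gene lists and tests were chosen with earlier results of these data known. In each comparison of 2 groups the naming rule took up to 3 members per direction with the smallest unadjusted p under 0.05 and no overlap between groups. It also took the 4 members with the largest and the 4 with the smallest standard deviation, and a fixed set of core, tissue-form and regulator genes. Alternatives covered normalization, the filter, the choice of probe set and of arrays, array weights, the variance model, the replicate number as a block, cortical markers as a covariate and leaving out each array. The lower probe set and the low-level covariate (the mean of genes under 7) were added after the data were seen. Replicate numbers did not pair the arrays: deviations of the 30 same-number pairs correlated between -0.625 and 0.507.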

Additional observations from a re-analysis of the deposited data

How the results depend on the processing

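Under every alternative run, 0 members passed the threshold of 0.05 in any of the 12 comparisons. In comparisons of 2 groups a member's 95% interval reached a median of 0.12 to either side, and the members nearest background, Cox8c and Cox6c-ps1, were not tested. The mean of a gene's probe sets turned Uqcrb in 30W against Sal to -0.0027, and the lower probe set to -0.0918; the lower probe set turned Atp5mc2 there to 0.0015. The low-level covariate turned Ndufa7 in 30W against 1W to 0.0011; the cause was not tested. It also moved the members' median to 0.0487 in 30W against Sal, 0.0346 in 30W against 1W, 0.0262 in 30 days against 1 day and -0.0160 in the interaction. Median centring moved it to 0.00955 in 30W against 1W.

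Counts of all genes, 0 in the main setting except 1 in 30 days against 1 day, moved as follows. 30C against 30W gave 1 at a threshold of 0.1, with array weights and with the cortical covariate. Array weights gave 3 in 30W against 1W and 2 in 30C against 1C, where the cortical covariate gave 1; the latter gave 3 for the test. For 30 days against 1 day the count was 5 at a threshold of 0.1, 2 with a filter at the 50th percentile, 4 after quantile normalization, 6 with array weights, and 0 with median centring, with only the arrays compared or with the low-level covariate. Leaving out 1 array gave 0 to 1 in 1C against Sal, 1C against 1W, 30C against 30W and 30W against 1W, 0 to 2 in 30C against 1C, and 0 to 3 in 30 days against 1 day. The cause was not tested. Fitting only the arrays compared could not apply to cocaine against Sal, which uses all arrays.

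With the replicate number as a block, 0 members passed in any comparison, and no call changed. Same-numbered arrays correlated best with their own number in 5 of 15 cases, so the numbers are not read as pairs.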
